A study of Homo sapiens with 6 samples.

Results

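Aminoacyl-tRNA synthetases are the enzymes that join each amino acid to its tRNA, and their transcripts are described here in a prostate epithelial line with and without a hairpin against PKCλ/ι. The members were 37 named genes: 19 of the cytosolic enzymes, 16 of the mitochondrial enzymes, and AIMP1 and AIMP2, scaffold proteins of the cytosolic multisynthetase complex. A gene was taken when a probe set of the array was annotated with its symbol alone, which held for 36 of the 37, among 18404 genes in all. AIMP2 was not analysed here. The list holds no enzyme for aspartate, and its rule goes by gene names alone.

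The arrays came from PrEC, an immortalized normal prostate epithelial cell line, in 2 groups of 3 arrays with 1 RNA sample each. The shPKCi group (written shPKCl/i in some labels) carried the hairpin against PKCλ/ι, a kinase of the atypical PKC family and the product of PRKCI. The shNT group carried the hairpin so named. Both lines were grown in PrEGM medium and collected 48 hours after plating with no other agent. The labels do not say whether a line is 1 clone or a pool, nor which hairpin sequence was used. The series calls the samples biological replicates. Precision is limited by there being 3 arrays in each group.

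PRKCI, the targeted transcript, had intensities of 800.3, 810.2 and 753.8 in the shPKCi arrays, against 1635, 1428 and 1843 in the shNT arrays, and the groups did not overlap. The array of shNT replicate 2 stood apart, with the narrowest interquartile range of log2 intensity (3.33, against 3.46 to 3.52 in the others) and correlations with them of 0.974 to 0.989. Of the basal epithelial markers looked for, 8 of 10 were measured. They lay between the 34.0th and 99.6th percentile of signal, with a median of 96.2, and KRT5, a basal keratin gene, was the highest. PTPRC, the gene of the leukocyte antigen CD45, lay at the 1.17th percentile. It was the lowest of 9 endothelial and blood cell markers, whose median percentile was 19.5 and highest 78.9. Summed basal marker intensity ran from 10596 to 10814 in the shPKCi arrays and from 13214 to 14787 in the shNT arrays, and 6 of the 8 fell, or 3 to 6 in the fits without 1 array. Of all genes, 8.95% fell in the fit of all 6 arrays and 5.69% to 10.6% in the fits without 1 array. Summed intensity of 8 fibroblast markers ran from 316 to 340 in shPKCi and from 372 to 447 in shNT, where 1 of 8 fell. Endothelial and blood cell markers summed to 402 to 423 in shPKCi and 435 to 469 in shNT, with 1 of 9 higher and 1 lower. Luminal markers lay between the 31.4th and 96.3rd percentile of signal. They summed to 2572 to 2664 in shPKCi and 1844 to 2523 in shNT. Of the 4 luminal markers measured, 1 fell and 0 rose, but without shNT replicate 2 there were 2 that rose and 1 that fell. The part of these differences in the results that follow was not tested, and fewer cells of a type cannot be told from less RNA per cell.

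In human cells the cytosol and the mitochondria charge their tRNAs with largely separate sets of nuclear-encoded enzymes. Several cytosolic enzymes are held in a multisynthetase complex with scaffold proteins, while others act as free dimers or with elongation factors. GARS1 and KARS1 each encode both a cytosolic and a mitochondrial form of the enzyme, which a gene-level probe set does not separate. Many cytosolic synthetase genes are known targets of ATF4, the transcription factor of the amino acid stress response. WARS1 is also known as an interferon gamma response gene.

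Transcripts of the cytosolic enzymes were mostly higher in the shPKCi arrays, whereas those of the mitochondrial enzymes lay on both sides of their shNT level and, apart from MARS2, did not pass the test. Of 19 cytosolic enzyme genes, 13 rose, 1 fell and 5 did not pass the test, with a median log2 fold change of 0.38. Of 16 mitochondrial enzyme genes, MARS2 rose, none fell and 15 did not pass, with a median of 0.01. Across all genes tested, 9.55% were higher and 8.95% lower at the same threshold, a Benjamini-Hochberg adjusted p under 0.05 from limma, and the median log2 fold change was -0.02. The 3 shPKCi arrays all lay above the 3 shNT arrays in 16 cytosolic and 4 mitochondrial enzyme genes, where 18% of all genes did so. They all lay below in 2 cytosolic enzyme genes and 1 mitochondrial one, against 17.8% of all genes.

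The count of cytosolic genes that rose depended on which arrays entered the fit. It was 6 without shPKCi replicate 1, 6 without shPKCi replicate 2, 8 without shPKCi replicate 3 and 7 without shNT replicate 1. Without shNT replicate 2 it was 12, and without shNT replicate 3 it was 10. Over all genes the share that was higher was then also lower in 5 of these 6 fits, down to 5.42% without shPKCi replicate 2. WARS1, YARS1, TARS1, MARS1, HARS1, FARSA and the mitochondrial MARS2 passed upward in each of the 16 alternative settings tried.

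**Figure D1:**
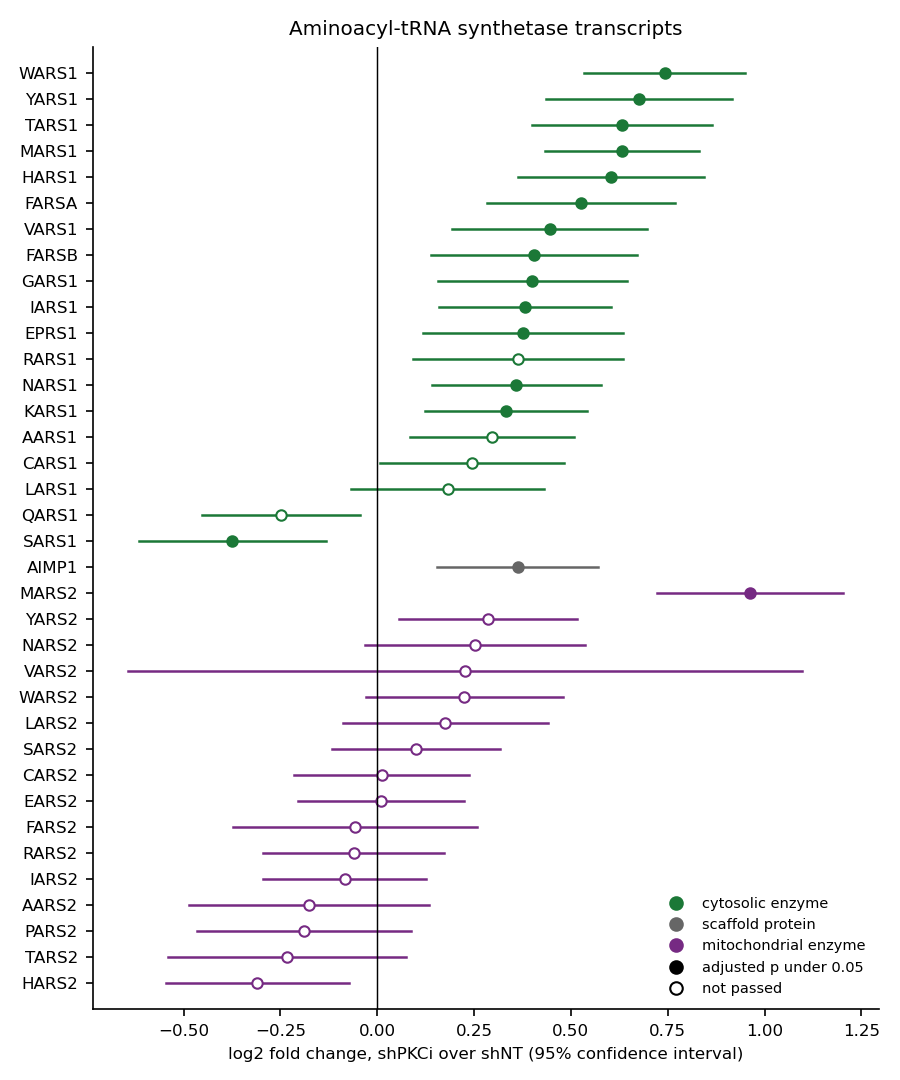
Log2 fold change of each measured gene, shPKCi over shNT (x axis), with its unadjusted 95% confidence interval from limma, for cytosolic enzymes, the scaffold protein AIMP1 and mitochondrial enzymes (y axis). Filled points have an adjusted p under 0.05; 13 of 19 cytosolic enzymes are filled and right of 0, SARS1 is filled and left of 0, and MARS2 is the 1 filled mitochondrial enzyme.

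Among the enzymes outside the multisynthetase complex, 9 of 12 rose and 1 fell, with a median log2 fold change of 0.42. Among all genes, 9.55% passed upward and 8.95% downward. Dropping shPKCi 1 or shPKCi 2 left 5 of the 12 higher, with 5.82% and 5.42% of all genes passing upward. Dropping shNT 2 left 9 of the 12 higher, with 10.5% of all genes. WARS1 charges tRNA with tryptophan. Its intensities were 535.3, 563.7 and 550.7 in the shPKCi arrays, against 328.7, 312.1 and 346.1 in the shNT arrays. Every shPKCi value of WARS1 lay above every shNT value, and the gene was 1.67-fold higher (log2 fold change 0.74, SE 0.09, adjusted p = 0.00061). YARS1, the tyrosine enzyme gene, had 616.4, 643.8 and 642.3 in shPKCi, against 439.0, 351.8 and 405.0 in shNT. The groups of YARS1 did not overlap, and it was 1.60-fold higher (adjusted p = 0.00217).

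TARS1 encodes the threonine enzyme and gave 2685, 2696 and 2635 in the shPKCi arrays, against 1869, 1536 and 1785 in the shNT arrays. Its shPKCi arrays lay close together and above all shNT arrays, with a fold of 1.55 (log2 fold change 0.63, SE 0.10, adjusted p = 0.00257). HARS1, for histidine, had 843.2, 898.8 and 880.7 in shPKCi, against 574.6, 515.3 and 642.2 in shNT. HARS1 was thus 1.52-fold higher with no overlap (adjusted p = 0.00392).

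Phenylalanine is charged in the cytosol by an enzyme of α and β subunits. FARSA, the α subunit gene, had intensities of 329.3, 355.9 and 383.2 in the shPKCi arrays, against 273.5, 241.1 and 228.2 in the shNT arrays. FARSB, the β subunit gene, had 1282, 1284 and 1124 in shPKCi, against 983.0, 802.2 and 1012 in shNT. Both subunit genes were higher in every shPKCi array, by 0.53 for FARSA (adjusted p = 0.00864) and 0.40 for FARSB (adjusted p = 0.0408) on the log2 scale. FARSB did not pass without any 1 of the arrays shPKCi 1, 2 or 3, shNT 1 or shNT 2, with adjusted p up to 0.146.

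VARS1, for valine, whose enzyme binds elongation factor eEF1, rose by 0.44 (148.6, 126.8 and 123.8 in shPKCi, against 106.3, 89.7 and 97.1 in shNT). GARS1, for glycine, rose by 0.40, with 2314, 2268 and 2105 in shPKCi and 1723, 1500 and 1861 in shNT. NARS1, for asparagine, rose by 0.36, with 1718, 1768 and 1910 in shPKCi and 1357, 1499 and 1353 in shNT. The groups of these 3 genes did not overlap, with adjusted p of 0.0218 for VARS1, 0.0302 for GARS1 and 0.0301 for NARS1. Each of these calls was lost in some fits without 1 array: VARS1 without shPKCi 1, shPKCi 2 or shNT 3, GARS1 without any 1 shPKCi array or shNT 1, and NARS1 without any 1 shPKCi array, shNT 1 or shNT 3. AARS1, for alanine, missed the threshold at a log2 fold change of 0.30 (adjusted p = 0.0581) with no overlap between the groups, and it passed without shNT replicate 2 (adjusted p = 0.0275). CARS1, for cysteine, stood at 0.24 on that scale (SE 0.11), with an adjusted p of 0.155.

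SARS1, the serine enzyme gene, was the 1 cytosolic member that fell. Its intensities were 574.7, 657.4 and 699.1 in the shPKCi arrays, against 892.0, 804.1 and 801.3 in the shNT arrays. All shPKCi values of SARS1 lay below all shNT values, and its log2 value fell by 0.37 (SE 0.11) with an adjusted p of 0.0385. This call was lost without shPKCi 1, shPKCi 2, shNT 1 or shNT 3, and under median centring of the arrays, where limma gave an adjusted p of 0.0642.

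**Figure D2:**
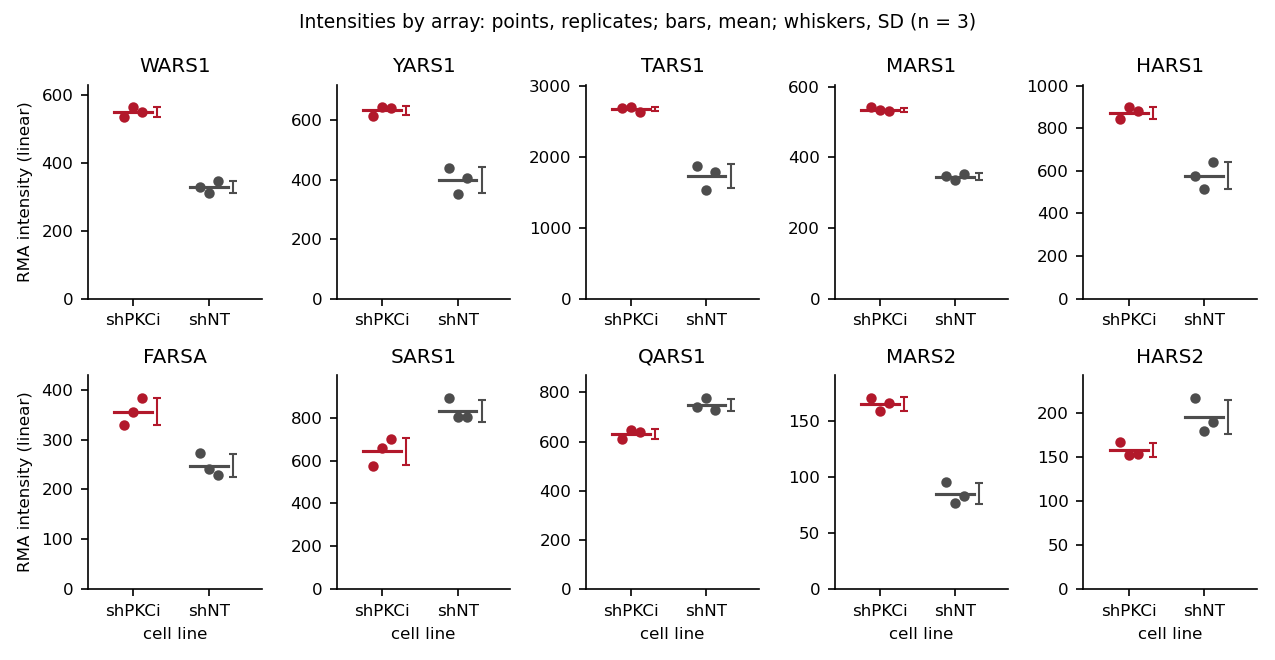
RMA intensity on a linear scale (y axis, from 0) in shPKCi and shNT cells (x axis) for 10 genes; points are arrays, bars the mean and whiskers the SD of 3 arrays. WARS1, YARS1, TARS1, MARS1, HARS1, FARSA and MARS2 lie higher in all 3 shPKCi arrays, and SARS1, QARS1 and HARS2 lie lower.

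In the multisynthetase complex, 4 of 7 enzyme genes rose, none fell, and the median log2 fold change was 0.36. Among all genes, 9.55% passed upward and 8.95% downward. Dropping shPKCi 1, shPKCi 2 or shNT 1 left 1 of the 7 higher, MARS1. The share of all genes passing upward was then 5.82%, 5.42% and 8.04%. MARS1, for methionine, had intensities of 540.9, 533.9 and 529.4 in the shPKCi arrays, against 345.8, 336.0 and 353.8 in the shNT arrays. The spread within each group of MARS1 was small beside the difference, and it was 1.55-fold higher (log2 fold change 0.63, SE 0.09, adjusted p = 0.00115). IARS1, for isoleucine, had 1952, 2019 and 1830 in shPKCi, against 1508, 1373 and 1577 in shNT. EPRS1, whose product charges both glutamate and proline, had 2009, 2153 and 1964 in shPKCi, against 1656, 1356 and 1734 in shNT. KARS1, for lysine, had 1227, 1219 and 1307 in shPKCi, against 1042, 950.1 and 986.4 in shNT. These 3 genes did not overlap between groups, and their log2 fold changes were 0.38 for IARS1 (adjusted p = 0.0248), 0.38 for EPRS1 (adjusted p = 0.0496) and 0.33 for KARS1 (adjusted p = 0.0339).

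MARS1 was the complex member that passed in each of the 6 fits without 1 array. The other calls were lost in some of them: IARS1 without shPKCi 1, shPKCi 2 or shNT 1, KARS1 without any 1 shPKCi array, shNT 1 or shNT 3, and EPRS1 without any 1 array other than shNT 3. RARS1, for arginine, did not pass at 0.36 (SE 0.12 on the log2 scale), with an adjusted p of 0.0674. It was 0.24 without shNT replicate 2. LARS1, whose product charges leucine and is also known as a leucine sensor, had 0.18 (adjusted p = 0.328), with overlapping groups, and 0.081 without shNT replicate 2. QARS1, for glutamine, pointed the other way, with 608.8, 645.1 and 637.1 in shPKCi, against 741.4, 777.2 and 727.6 in shNT. Its groups did not overlap, but the log2 fold change of -0.25 missed the threshold (SE 0.09, adjusted p = 0.0929). AIMP1, the scaffold protein gene, rose by 0.36 (251.1, 275.6 and 261.5 in shPKCi, against 203.1, 197.4 and 212.6 in shNT, adjusted p = 0.0238). The call of AIMP1 was lost without any 1 shPKCi array or shNT 1, with adjusted p up to 0.115.

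The synthetases fall into 2 unrelated structural classes, and transcripts of both classes rose in the cytosolic set. Of 9 class I genes, 5 rose and none fell, with a median log2 fold change of 0.38. Of 9 class II genes, 7 rose and SARS1 fell, with a median of 0.40. Among all genes, 9.55% passed upward and 8.95% downward. Dropping shPKCi 1 or shPKCi 2 left 3 genes of each class higher, while dropping shNT 2 left 5 of class I and 7 of class II. QARS1, of class I, passed as lower with cyclic loess, the filter at the median signal and trended robust variance. A difference between the classes was not tested. EPRS1, which holds a domain of each class, was left out of both counts.

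**Figure D3:**
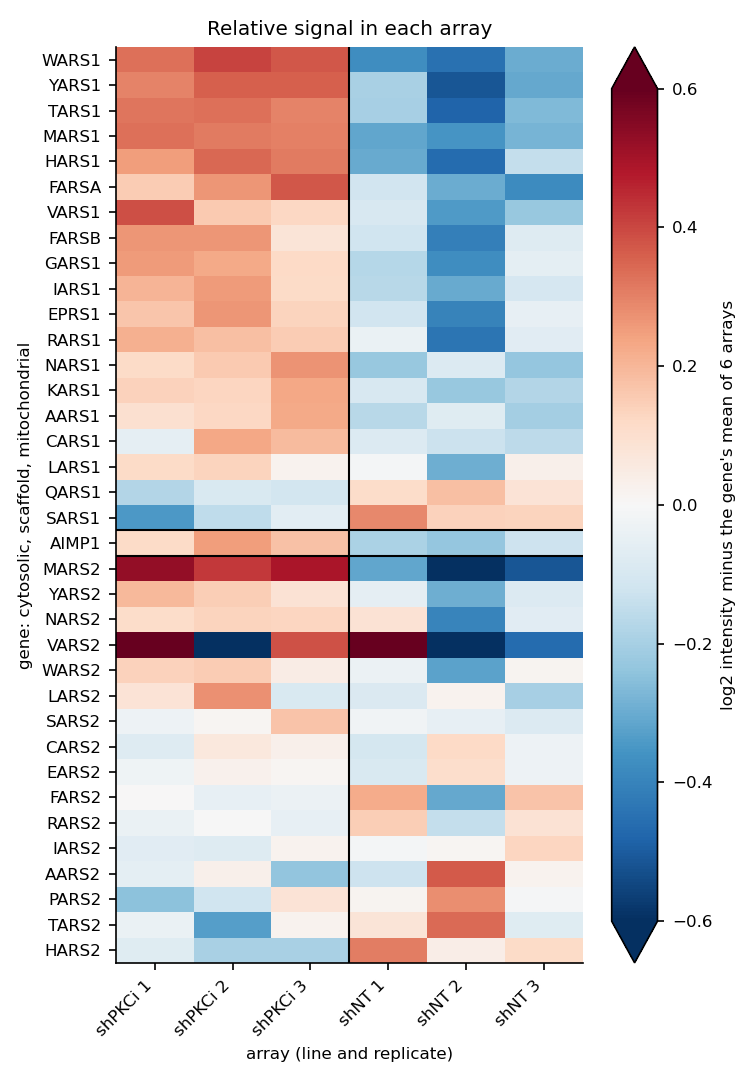
Log2 intensity relative to the gene's mean of the 6 arrays (colour, red higher and blue lower, limited to 0.6 either way) for each gene (y axis: cytosolic enzymes, AIMP1, mitochondrial enzymes) in each array (x axis). The cytosolic block is mostly red in the 3 shPKCi arrays and blue in the 3 shNT arrays, bluest in shNT replicate 2, and QARS1 and SARS1 run the other way.

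Averaged over the 19 cytosolic genes, the relative log2 value was 0.16, 0.21 and 0.18 in shPKCi replicates 1 to 3, against -0.13, -0.28 and -0.15 in shNT replicates 1 to 3. For the 16 mitochondrial genes it was 0.06, -0.01 and 0.05 in shPKCi, against 0.05, -0.09 and -0.06 in shNT. The arrays of both lines thus separated on the cytosolic mean and overlapped on the mitochondrial one, and shNT replicate 2 was lowest on both. Without shNT replicate 2 the median log2 fold change was 0.33 for the cytosolic genes and 0.02 for the mitochondrial genes.

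MARS2, which charges the mitochondrial methionine tRNA, was the exception among the mitochondrial enzymes. It had intensities of 170.6, 158.8 and 166.2 in the shPKCi arrays, against 95.2, 77.0 and 82.9 in the shNT arrays. The groups lay far apart beside their spread. MARS2 was 1.95-fold higher (log2 fold change 0.96, SE 0.11, adjusted p = 0.00032), above the fold of every cytosolic member. Its adjusted p ran from 5.05e-05 to 0.00303 over the alternative settings.

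The other mitochondrial enzymes did not pass. YARS2, for tyrosine, came nearest upward, with 195.0, 188.7 and 180.7 in shPKCi, against values between 138.9 and 164.1 in shNT. The groups of YARS2 did not overlap, and its log2 fold change was 0.29 (SE 0.10, adjusted p = 0.0871). NARS2, for asparagine, and WARS2, for tryptophan, did not overlap between groups either, at 0.25 for NARS2 (adjusted p = 0.224) and 0.22 for WARS2 (adjusted p = 0.226) on the log2 scale. Without shNT replicate 2 both were 0.12. HARS2, for histidine, was lowest, with 166.7, 152.9 and 153.1 in shPKCi, against 217.1, 180.1 and 189.9 in shNT. Its log2 fold change of -0.31 missed the threshold (SE 0.11, adjusted p = 0.0721), but passed without shNT replicate 2 (adjusted p = 0.0293).

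The remaining 11 mitochondrial genes overlapped between the groups. IARS2, for isoleucine, had 1574, 1563 and 1673 in shPKCi, against 1638, 1662 and 1802 in shNT, a log2 fold change of -0.08 (95% interval -0.29 to 0.13). RARS2, for arginine, had 491.6, 504.3 and 489.3 in shPKCi, against 559.4, 458.3 and 537.2 in shNT, with -0.06 (-0.30 to 0.17). IARS1 had 0.38 (0.16 to 0.60) and RARS1, which did not pass, 0.36 (0.09 to 0.63). The intervals of RARS1 and RARS2 overlap. EARS2, whose product charges glutamate, and CARS2, for cysteine, had log2 fold changes of 0.01 each, with intervals of -0.20 to 0.22 and -0.21 to 0.24. FARS2, for phenylalanine, had -0.06, SARS2, for serine, 0.10, and LARS2, for leucine, 0.18. AARS2, PARS2 and TARS2, for alanine, proline and threonine, had -0.18, -0.19 and -0.23, with adjusted p of 0.305 or more. Without shNT replicate 2, FARS2 was at -0.23, RARS2 at -0.15, AARS2 at -0.037, PARS2 at -0.097 and TARS2 at -0.12, and none of these 5 passed.

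VARS2, for valine, could not be placed, because its brighter probe set varied within both lines. It read 81.2, 32.9 and 68.4 in shPKCi, against 87.2, 34.4 and 38.0 in shNT (log2 fold change 0.23, SE 0.39, adjusted p = 0.765). Its dimmer probe set gave 0.18 (SE 0.10) with a limma adjusted p of 0.304 over every probe set.

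The mitochondrial probe sets were the dimmer ones, between the 40.0th and 97.9th percentile of signal, while the cytosolic ones lay between the 62.4th and 98.8th. The median percentile was 64.2 for the mitochondrial and 92.6 for the cytosolic genes. The part of this in the contrast was not tested. Median standard errors were 0.11 in both sets. In a fit of the 9202 genes above the median signal alone, 21.6% were higher and 17.2% lower.

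The same amino acid can be followed in both compartments, in 17 pairs of genes over 16 amino acids. For each pair the log2 difference between the cytosolic and the mitochondrial gene was taken within each array and compared between lines, with a two-sided exact permutation test. In 15 pairs the cytosolic gene changed upward relative to its partner and in 2 downward, with a median of 0.42. The smallest exact p that 3 arrays against 3 allow is 0.1, and 14 pairs reached it (adjusted over the 17 pairs, p = 0.121), so that no pair could pass a threshold of 0.05. The 2 downward pairs are among these 14. To reach it, the values of both lines need only not overlap. Of all single genes, 18% lay wholly above in shPKCi and 17.8% wholly below.

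For histidine the gap between both genes widened by 0.91 on the log2 scale in shPKCi. Relative to its mean over the arrays, the log2 difference of HARS1 and HARS2 was 0.32, 0.54 and 0.51 in shPKCi, against -0.61, -0.50 and -0.26 in shNT. For threonine, TARS1 against TARS2, the gap widened by 0.86, and for tryptophan, WARS1 against WARS2, by 0.52.

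Methionine and serine ran the other way. The log2 difference of MARS1 and MARS2 was lower in shPKCi, a change of -0.33 (-0.20, -0.11 and -0.19 relative to its mean in shPKCi, against -0.00048, 0.27 and 0.23 in shNT), with both genes higher. That of SARS1 and SARS2 changed by -0.47 (-0.31, -0.16 and -0.24 in shPKCi, against 0.31, 0.19 and 0.22 in shNT). Leucine (0.01, exact p = 1), asparagine (0.11, exact p = 0.6) and valine (0.22, exact p = 0.6) had overlapping values.

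**Figure D4:**
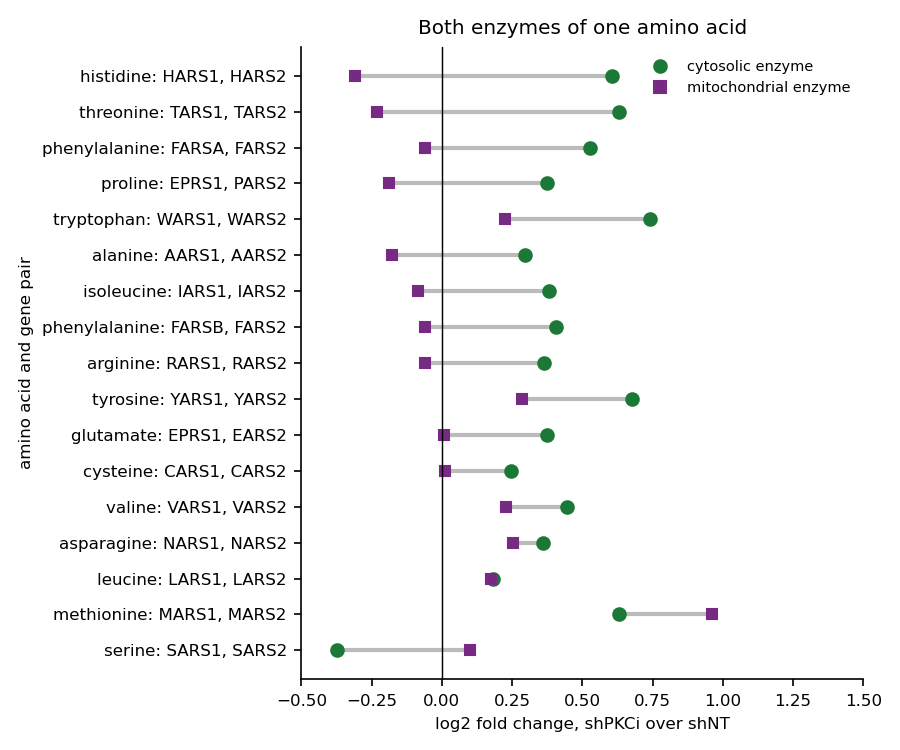
Log2 fold change, shPKCi over shNT (x axis), of the cytosolic (circle) and mitochondrial (square) enzyme gene for each of 17 pairs (y axis, ordered by the difference). In 15 pairs the circle lies right of the square, and in methionine and serine it lies left.

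HARS1 and HARS2 are neighbours that point away from each other, so that their annotated starts share 1 short stretch of DNA. The 84 bases between the starts in RefSeq, at GRCh38.p14 chr5:140691371-140691454 on the plus strand, are shown because HARS1 rose while HARS2 had a log2 fold change below 0. Capitals mark both matches to the ETS site core CCGGAAG on either strand, which 12.2% of all genes hold in a start window. The same core lay in 9 of 16 cytosolic and 7 of 14 mitochondrial enzyme genes with a window.
HARS1 and HARS2: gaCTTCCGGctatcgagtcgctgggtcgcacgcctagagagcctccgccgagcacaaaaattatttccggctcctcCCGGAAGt

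The sequence around the starts was also searched for the C/EBP-ATF response element, to which ATF4 binds with C/EBP partners, using its core TGATGNAA on both strands. RefSeq windows of 250 bases before to 50 after each annotated start (GRCh38.p14) were matched for 32 of the 37 members. The core lay in 7 of 16 cytosolic enzyme genes with a window, 1 of 14 mitochondrial ones and neither scaffold gene. Of all 27305 genes with a window, 4.46% held it. Capitals mark the core, each line reads along the gene's own strand, and stretches past the start are kept short.
AARS1, chr16:70289668-70289711, minus strand: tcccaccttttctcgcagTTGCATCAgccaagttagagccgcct
CARS1, chr11:3057413-3057430, minus strand: ggcggTTGCATCAgattc
GARS1, chr7:30594827-30594870, plus strand: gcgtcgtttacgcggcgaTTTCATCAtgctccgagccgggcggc
IARS1, chr9:92293698-92293728, minus strand: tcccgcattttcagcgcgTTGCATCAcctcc
MARS1, chr12:57488059-57488076, plus strand: tccggTTGCATCAgcgag
NARS1, chr18:57621810-57621827, minus strand: ctctcTGATGCAAcgccg
TARS1, chr5:33440962-33440979, plus strand: ttcgaTTGCATCAgctgg
YARS2, chr12:32756069-32756112, minus strand: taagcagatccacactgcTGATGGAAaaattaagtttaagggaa

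In AARS1 and YARS2 the core ended 179 and 189 bases before the start, and in GARS1 and IARS1 25 and 5 bases before it. It spanned the start in CARS1 and MARS1 and lay just after it in TARS1 and NARS1. Of the 7 cytosolic genes with the core 5 rose, with a median log2 fold change of 0.38, and of the 9 without it 6 rose, with a median of 0.38. The difference between these shares was not tested. A match is a description of letters and shows no binding. The transcript of ATF4 had intensities of 1188, 1158 and 1186 in shPKCi, against 1362, 1152 and 1225 in shNT, with overlapping groups (log2 fold change -0.08, SE 0.10, adjusted p = 0.671). ATF4 protein and its activity were not measured by these arrays.

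Of the other motifs searched, the E-box CACGTG, to which MYC binds, lay in MARS2, CARS2, EARS2, IARS1 and AIMP2, and in 8.77% of all genes. These are 3 of 14 mitochondrial and 1 of 16 cytosolic enzyme genes with a window, and 1 scaffold gene. The core of the interferon-stimulated response element, searched on both strands, lay in WARS1 and EARS2, and in 4.38% of all genes. No match of 1 motif overlapped a match of another. The windows of MARS2 and WARS1 are shown because these genes had the largest folds of their compartments, so they were picked by their values. Of the other measured genes with the E-box, CARS2 and EARS2 had log2 fold changes of 0.01 each and IARS1 0.38. EARS2 was also the other gene with the interferon core. A link between these motifs and the fold changes was not tested.
MARS2, E-box, chr2:197705340-197705368, plus strand: ctgcgcatgcgcctctcaCACGTGctgtc
WARS1, interferon element core at the downstream of its starts, chr14:100375375-100375420, minus strand: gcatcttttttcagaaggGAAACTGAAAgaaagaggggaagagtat

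MYC, whose protein binds E-boxes, had 1698, 1688 and 1779 in shPKCi, against 1419, 1595 and 1410 in shNT (log2 fold change 0.23, adjusted p = 0.149). It passed without shNT replicate 2. Of 6 measured interferon gamma response genes, IRF1 rose by 0.64 (adjusted p = 0.00859), GBP2 and CXCL10 fell by 1.89 and 0.92, and 3 did not pass. WARS1 and the transcription factor gene IRF1 were thus higher while the GTPase gene GBP2 (adjusted p = 2.77e-05) and the chemokine gene CXCL10 (adjusted p = 0.0048) were lower.

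The steps that make a tRNA ready for charging were examined next. Of 19 measured genes of tRNA processing, splicing and export, 10 rose and none fell, with a median log2 fold change of 0.49. Of all genes, 9.55% rose and 8.95% fell. Within that list, a grouping made after the values were seen, 8 of 9 measured protein subunits of RNase P and the related RNase MRP rose. RNase P trims the leading end of precursor tRNAs. Its subunit gene POP1 had 378.7, 373.6 and 391.1 in shPKCi, against 140.5, 97.8 and 134.6 in shNT, and RPP40 had 160.9, 147.1 and 129.7 in shPKCi, against 57.6, 62.0 and 76.9 in shNT. Neither gene overlapped between groups, and POP1 was 3.10-fold and RPP40 2.24-fold higher (adjusted p = 6.25e-05 for POP1 and 0.000372 for RPP40).

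ELAC2, which trims the trailing end, was 1.72-fold higher (291.2, 289.4 and 297.8 in shPKCi, against 179.0, 156.1 and 175.6 in shNT, adjusted p = 0.00055), and the RNase P subunit gene POP5 1.74-fold (adjusted p = 0.00164). XPOT, the tRNA export receptor gene, rose by 0.55 (1138, 1275 and 1111 in shPKCi, against 918.3, 591.1 and 936.9 in shNT, adjusted p = 0.0496). Its call was lost without any 1 shPKCi array or shNT 1, with adjusted p up to 0.162, and without shNT replicate 2 the log2 fold change was 0.34 (adjusted p = 0.0355). In the 6 fits without 1 array, 8 to 11 genes of the list rose, while the share of all genes that rose was 5.42% to 10.5%.

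**Figure D5:**
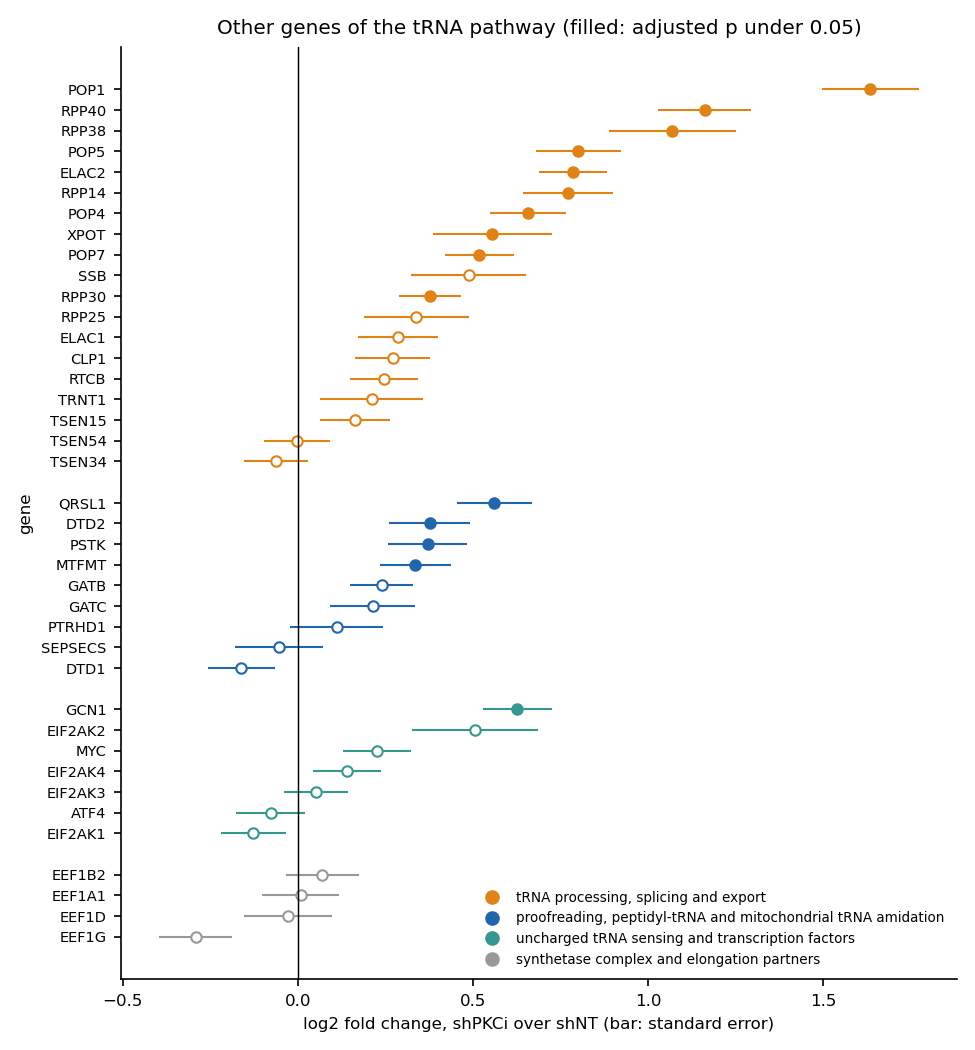
Log2 fold change, shPKCi over shNT (x axis), with its standard error, of the other genes of the tRNA pathway (y axis), coloured by list; filled points have an adjusted p under 0.05. POP1 and RPP40 lie furthest right, at 1.63 and 1.16.

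Of 9 measured genes of proofreading, peptidyl-tRNA release and tRNA amidation or formylation, 4 rose and none fell, against 9.55% and 8.95% of all genes. QRSL1 encodes a subunit of the amidotransferase that makes mitochondrial glutaminyl-tRNA from the product of EARS2. It had 360.9, 366.0 and 432.5 in shPKCi, against 248.6, 260.1 and 275.5 in shNT, and rose by 0.56 with no overlap (adjusted p = 0.0056). Its partner subunit genes GATB and GATC, named after their values were seen, did not pass, at 0.24 for GATB (adjusted p = 0.105) and 0.21 for GATC (adjusted p = 0.285) on the log2 scale. MTFMT, which formylates the methionyl-tRNA made by MARS2, rose by 0.34 (adjusted p = 0.0464). DTD2, which removes wrongly attached amino acids from tRNA, rose by 0.38 (adjusted p = 0.0496), and PSTK, a kinase of the selenocysteine tRNA pathway, by 0.37 (adjusted p = 0.048). The count of 4 dropped to 1, QRSL1, without shPKCi 1, shPKCi 2, shNT 2 or shNT 3, and to 2 without shPKCi 3 or shNT 1.

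Among genes that sense uncharged tRNA, GCN1, the partner of the kinase GCN2, had 174.2, 173.9 and 172.2 in shPKCi, against 104.0, 122.7 and 111.2 in shNT. It was 1.54-fold higher (adjusted p = 0.00205). The list it belongs to has 7 genes and also holds transcription factors and kinases other than GCN2. GCN1 was the 1 of these 7 to pass, where 9.55% of all genes rose and 8.95% fell. EIF2AK4, which encodes GCN2, did not pass (log2 fold change 0.14, adjusted p = 0.392). The elongation factor genes of the complex's partner list did not pass in any of 4 measured, with log2 fold changes from -0.29 to 0.07. Of these, EEF1G and EEF1D, subunit genes of elongation factor eEF1 named after their values were seen, depended on the setting. EEF1G, at -0.29, passed as lower without shNT replicate 2 (-0.37, adjusted p = 0.022), and also with cyclic loess, the filter at the median signal, trended robust variance and array weights. EEF1D, at -0.03, passed as higher when its probe set with the lowest mean was taken (0.63, adjusted p = 0.00774). EEF1E1, a further scaffold gene of the multisynthetase complex, was not analysed here.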

How the data were processed

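Per the submitters' processing notes, the authors made the deposited values with RMA, whose usual form corrects background, quantile-normalizes arrays and summarises each probe set; its settings and version are not given in the sources used here. The deposited values are intensities on a linear scale, which was inferred from their range, and log2 was taken here of these deposited intensities. Genes were named through the platform annotation: 19158 of 32321 probe sets had 1 symbol, 1388 several and 11775 were not listed in it, and no symbol was updated. A gene with several probe sets (637 of 18404) was represented by the one with the highest mean.

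The groups, shPKCi and shNT, were compared with limma 3.58.1 in R 4.3.3 (lmFit and eBayes, no covariate), with p-values adjusted by Benjamini-Hochberg over all 18404 genes and a threshold of 0.05. These p-values set the difference between the groups against the spread between arrays within each group. Spread between separately made lines of the same hairpin, or between hairpin sequences, does not enter them. The fit was also run on simulated data, with noise drawn independently for each gene and array. Those data hold no array that stands apart, so they do not bear on calls that depend on shNT replicate 2. The members and lists were chosen with earlier results of these data known, so their direction is not independent evidence. The genes named were all members, PRKCI, up to 4 passing genes per list by smallest adjusted p, and ATF4, EEF1E1, EIF2AK4, MYC, XPOT and IRF1. KRT5, PTPRC, GATB, GATC, EEF1G and EEF1D were named after their values were seen. The 16 alternatives covered left-out arrays, the replicate block, scaling, filters on low signal, the choice of probe set, the variance model, array weights and a threshold of 0.01.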

Additional observations from a re-analysis of the deposited data

How the results depend on the processing

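The 13 cytosolic genes that rose became 7 with the replicate number as a block, 6 at a threshold of 0.01, and 6 to 12 without 1 array. They became 10 with cyclic loess, 12 with the lowest probe set, and 15 with either signal filter, trended robust variance or array weights, where RARS1 and AARS1 were gained. The shared replicate numbers did not pair the samples (correlations of same-numbered deviations 0.12, -0.06 and -0.18). The count of cytosolic genes that fell, 1, became 0 with the replicate block, 0 with median centring, 0 at 0.01, 0 to 1 without 1 array, and 2 with cyclic loess, with a filter at the median signal, and with trended robust variance, where QARS1 was gained. The cytosolic median of 0.38 was 0.28 under cyclic loess. The 1 mitochondrial gene that rose became 2 with the filter at the median signal. The count that fell, 0, became 1 under cyclic loess, both signal filters and array weights, and 0 to 1 without 1 array. The mitochondrial median was 0.044 with median centring. Median centring called 1824 of all genes higher and 1372 lower, and cyclic loess 1673 and 1900, against 1758 and 1648 as reported. The share of all genes that was higher, 9.55% as reported, also moved with the setting. It was 21.6% with the filter at the median signal, 14.2% with that at the lower quartile, 10.8% with trended robust variance and 12.6% with array weights. It was 8.35% with the replicate block and 4.73% at 0.01.

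Some directions reversed, all of genes or pairs whose groups overlapped. Without 1 array, log2 fold changes ran from -0.037 to 0.073 for CARS2, -0.033 to 0.064 for EARS2, -0.23 to 0.039 for FARS2 and -0.031 to 0.65 for VARS2, which was -0.22 with array weights. The pair differences ran from -0.15 to 0.12 for LARS1 minus LARS2, -0.023 to 0.29 for NARS1 minus NARS2 and -0.14 to 0.41 for VARS1 minus VARS2. LARS1 minus LARS2 was also -0.093 with cyclic loess and -0.15 with array weights. Of 573 results of the member genes under alternatives, 481 kept direction and side of the threshold, 61 lost the call, 19 gained it and 12 reversed. The causes were not tested. With 3 arrays a group and a median standard error of 0.11, small differences could not be resolved.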
